A study of Mus musculus with 60 samples.

Results

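The insulin-like growth factor (IGF) axis is described here by 10 mouse genes: the ligand genes Igf1 and Igf2, the receptor genes Igf1r and Igf2r, and the binding protein genes Igfbp1 to Igfbp6. They were chosen by name, and all 10 were found through the RefSeq identifiers of 12 probe sets. The array, a custom Affymetrix design for genes of glycan biology, named 909 genes in all through 963 probe sets. Igfbp4 had 3 probe sets and each other gene had 1. Levels are log2 values, so that a difference of 1 is a doubling, and a level of one gene was not set against that of another because probes differ in their response.

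IGF1 and IGF2 are secreted growth peptides that signal through the IGF1 receptor, a tyrosine kinase. The IGF2 receptor has no kinase: it is the cation-independent mannose 6-phosphate receptor, which carries newly made lysosomal enzymes with a mannose 6-phosphate tag to the lysosome and takes up IGF2 for degradation. The binding proteins hold the peptides in blood and tissue and lengthen or limit their action, and in the mouse Igf2 and Igf2r are imprinted genes.

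Mice without St6galnac2 (KO, -/-), the gene of a sialyltransferase that acts on protein-linked N-acetylgalactosamine, were compared with wild-type mice of their line (WT, +/+) in 4 tissues. Thyroid, lymph node and brain came from 3 KO and 3 WT mice each, and intestine from 2 KO and 3 WT mice. Mice without both B4galnt1 and B4galnt2 (DKO), which encode N-acetylgalactosaminyltransferases of glycolipids and of sialylated chains, were compared with WT mice of their own line. DKO and WT groups held 5 and 3 mice in thymus, 3 and 3 in testes, 5 and 2 in mammary gland, and 5 and 4 in kidney. Kidney and mammary gland came from both sexes (3 male and 2 female DKO mice in each, 3 male and 1 female WT mice in kidney, and 1 of each sex in WT mammary gland), and the WT thymus mice were all male. Brain and small intestine of 3 C57 WT mice, whose sex the labels do not give, served as a further reference. Tissues were whole and total RNA was extracted, so that fewer cells of a type and less RNA per cell cannot be told apart.

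Of the 60 arrays, 56 resembled their labelled tissue most (median correlation 0.94 across genes) and 4 stood apart, with correlations under 0.3. They were the first of 2 brain arrays and the intestine array of WT mouse 9099, and the thymus arrays of WT mice N3740 and N3738. The brain array matched intestine (0.956) and the intestine array matched brain (0.945). On the 3 measured T cell markers (Il7r, Ccr7 and Il2ra) thymus arrays of both genotypes averaged 3.44 to 4.65, against 4.94 to 7.66 on lymph node arrays, so these T cell genes, which a thymus should express, were low on all of them. Transcripts of the targeted genes were not lower throughout in the knockouts: St6galnac2 read 5.79 to 6.27 in KO thyroid and 5.49 to 5.94 in WT thyroid, and B4galnt1 read 5.30 to 6.04 in DKO kidney and 5.47 to 5.93 in WT kidney. Whether the probe sets lie in the deleted parts is not given in the sources used here. Many results named below that rest on the 4 arrays are given with and without them. In the contrasts of WT testes, kidney and mammary gland most single differences are given with them only.

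The start regions of 4 members are shown because their genes carry the findings below: Igf2r differed between DKO and WT testes, Igf1r is the signalling receptor, and Igfbp3 and Igfbp4 had much the same order of tissues. Sequences are from RefSeq (GRCm38.p6), run 5′ to 3′ on the strand of the gene and span 300 bases around a listed start. The windows of Igf2r and Igf1r hold the outer start of the gene (12769706 and 67952257). Those of Igfbp3 and Igfbp4 lie inside the gene as listed (7206086 to 7215498 and 99040005 to 99052655). Capitals mark the GC box GGGCGG, the TATA box TATAAA and the E-box CACGTG, each searched on both strands, so that a match may read as the reverse complement.
Igf2r start region (chr17:12769657-12769956, minus strand): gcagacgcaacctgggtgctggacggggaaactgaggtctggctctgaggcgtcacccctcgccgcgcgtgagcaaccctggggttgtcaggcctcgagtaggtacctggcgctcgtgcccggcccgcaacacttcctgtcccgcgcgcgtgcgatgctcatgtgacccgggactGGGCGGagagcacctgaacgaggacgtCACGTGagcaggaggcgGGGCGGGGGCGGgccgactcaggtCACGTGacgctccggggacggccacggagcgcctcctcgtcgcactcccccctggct
Igf1r start region (chr7:67952007-67952306, plus strand): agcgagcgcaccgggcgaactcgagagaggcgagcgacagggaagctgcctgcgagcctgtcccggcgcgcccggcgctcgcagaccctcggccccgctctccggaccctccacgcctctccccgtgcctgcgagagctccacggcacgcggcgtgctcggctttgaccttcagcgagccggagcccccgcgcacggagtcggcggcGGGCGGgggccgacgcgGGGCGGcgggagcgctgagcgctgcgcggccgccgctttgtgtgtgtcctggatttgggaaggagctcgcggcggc
Igfbp3 start region (chr11:7213874-7214173, minus strand): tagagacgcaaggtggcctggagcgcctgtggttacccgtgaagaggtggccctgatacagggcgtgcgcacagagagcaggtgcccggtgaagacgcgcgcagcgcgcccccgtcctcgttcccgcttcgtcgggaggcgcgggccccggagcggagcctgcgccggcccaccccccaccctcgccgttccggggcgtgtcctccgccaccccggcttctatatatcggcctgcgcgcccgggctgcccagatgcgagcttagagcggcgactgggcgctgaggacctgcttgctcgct
Igfbp4 start region (chr11:99040994-99041293, plus strand): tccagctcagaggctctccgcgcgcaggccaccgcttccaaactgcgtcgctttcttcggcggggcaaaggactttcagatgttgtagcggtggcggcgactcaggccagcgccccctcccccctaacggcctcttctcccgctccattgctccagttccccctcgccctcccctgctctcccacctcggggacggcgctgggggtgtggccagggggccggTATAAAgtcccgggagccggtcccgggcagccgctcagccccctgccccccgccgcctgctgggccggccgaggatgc
The Igf2r window held 3 GC boxes, 2 of them adjoining, and 2 E-boxes, and the Igf1r window held 2 GC boxes. The Igfbp4 window held 1 TATA box and the Igfbp3 window none of the motifs. Among 32851 mouse promoters of the same length, 35.7% held a GC box, 13.6% a TATA box and 7.2% an E-box. The windows held 34 (Igf2r), 48 (Igf1r), 37 (Igfbp3) and 27 (Igfbp4) CpG sites, against a median of 7.0 over all promoters, so these 4 windows were CpG-rich. The windows of Igf1 (6), Igfbp1 (8), Igfbp6 (8) and Igfbp5 (10) were near that median. Igfbp2 had windows with 18 and 14 sites and Igf2 had windows with 24, 14, 7 and 2, so the members did not fall into 2 clear groups. A motif match is a description of the letters only.

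Most members were strongly patterned by tissue, but Igf2r was not. The range of tissue means was taken over both genotypes, without the 4 arrays and without C57 mice. It ran from 2.11 log2 units for Igf2r to 6.18 for Igfbp5, against a median of 1.96 over all genes. Among all genes the range of Igf2r lay at percentile 53.0, that of Igf1r at 77.2 and those of the other members at 81.6 to 97.6. In this set thyroid, lymph node, brain and intestine came from the St6galnac2 line alone. Thymus, testes, mammary gland and kidney came from the line of the DKO mice alone. Orders of tissues and correlations of tissue means that span both lines therefore cannot tell tissue from line. The tests of WT tissues given below were made within a line. Igf1, the ligand that growth hormone induces, was highest in mammary gland (lowest 9.40, median 10.44, highest 10.83, n = 7) and thymus (9.45, 9.79 and 9.97, n = 6). It was lowest in testes (5.81, 6.44 and 6.64) and brain (6.18, 6.32 and 6.47, n = 6 each). The ranges of neighbouring tissues in this order overlapped throughout, so only tissues further apart were separated.

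Igf2, the ligand of fetal growth, had the highest level in thymus (lowest 10.94, median 11.91, highest 12.19, n = 6), above the brains of the St6galnac2 line (10.27, 10.46 and 10.92, n = 6). The C57 brains, at 10.52, 10.75 and 11.07, reached into the thymus range. It was lowest in lymph node (6.44, 6.84 and 7.96, n = 6) and in most kidneys (6.42, 6.60 and 10.24, n = 9). Within thyroid, Igf2 read 7.92, 8.23 and 10.40 in KO mice and 8.33, 8.55 and 10.96 in WT mice. The 2 high thyroids, of KO mouse 9361 and WT mouse 9362, were also the highest for Igf1 (10.06 and 9.59, against 8.06 to 8.60 in the other 4). Connective tissue markers (7 of 13 listed genes measured) averaged 9.42 and 9.47 in these 2 thyroids and 8.75 to 8.93 in the others, and their part in the result was not tested. The same markers averaged 9.40 to 10.05 in DKO thymus and 7.71, 7.85 and 9.56 in WT thymus, against 8.26 to 9.67 in DKO mammary gland. Their part in the thymus levels of the members was not tested either. Chga, the 1 measured of 6 genes listed for thyroid, read 5.77 in the thyroid of 9361 and 12.73 in that of 9362. It also read 10.37 to 10.67 in C57 brain, so it was not particular to thyroid.

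Igf1r was highest in kidney (lowest 8.95, median 9.17, highest 9.45, n = 9), above the brains of the St6galnac2 line (8.07, 8.49 and 8.63, n = 6), and lowest in intestine (5.39, 5.63 and 6.35, n = 4). Igf2r had the flattest profile. It was highest in thymus (8.30, 8.74 and 8.93, n = 6), kidney (8.21, 8.47 and 8.91, n = 9) and intestine (8.07, 8.48 and 8.79, n = 4), whose ranges overlapped, and lowest in testes (6.10, 6.52 and 7.12, n = 6).

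Igfbp1, whose product is a circulating binding protein that insulin represses, was a kidney transcript among these 8 tissues. Its level was 7.13 to 9.01 in kidney (median 8.39, n = 9) and 2.91 to 3.98 in every other tissue, below the 25th percentile of all array values (4.21). Igfbp3, the main carrier in blood, and Igfbp4, an inhibitory binding protein that PAPP-A cleaves, followed kidney too. Igfbp3 read 9.84, 10.41 and 10.91 (lowest, median and highest) in kidney and 5.25, 5.37 and 5.89 in testes, and Igfbp4 read 11.80, 12.13 and 12.30 in kidney and 6.49, 6.69 and 7.83 in testes. In both, every kidney lay above every sample of the other 7 tissues in this set. The tissue means of Igfbp3 and Igfbp4 correlated at r = 0.92 over the 8 tissues, the highest value of any pair of members, as a description over means that share arrays.

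Igfbp2, a binding protein of fetal tissues and of the nervous system, had a profile unlike the others. It was highest in brain (lowest 9.34, median 9.60, highest 10.15, n = 6) and testes (8.19, 8.41 and 9.59, n = 6), and every testis lay above every kidney (6.08, 6.90 and 7.29, n = 9). Its tissue means correlated at -0.77 with those of Igf2r, the lowest value of any pair of members (n = 8 tissues). Igfbp5, which binds extracellular matrix, had the widest range. It was high in thymus (11.45, 11.78 and 12.07), mammary gland (10.96, 11.52 and 12.19), kidney (10.91, 11.10 and 11.27) and thyroid (10.76, 11.03 and 11.31), whose ranges overlapped in that order, and low in testes (5.10, 5.56 and 6.11).

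Igfbp6, which prefers IGF2 over IGF1, was highest in mammary gland (lowest 10.30, median 11.31, highest 11.61, n = 7), thyroid (10.35, 10.80 and 10.96) and thymus (10.22, 10.48 and 11.32, n = 6 each). All of these lay above every testis (8.43, 8.79 and 9.18, n = 6). Kidney had the lowest mean (6.21, 6.61 and 6.91, n = 9), opposite to the other 4 binding protein genes that were high there. Lymph node had a lower median (5.24, 6.11 and 9.86, n = 6), and its mean was close to that of kidney (6.72 against 6.60). Igfbp2 and Igfbp5 are adjacent genes on chromosome 1, and Igfbp1 and Igfbp3 are adjacent on chromosome 11, as the RefSeq table of mouse genes gives them. The tissue means of the first pair correlated at -0.30 and those of the second pair at 0.61 (n = 8 tissues).

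**Figure D1:**
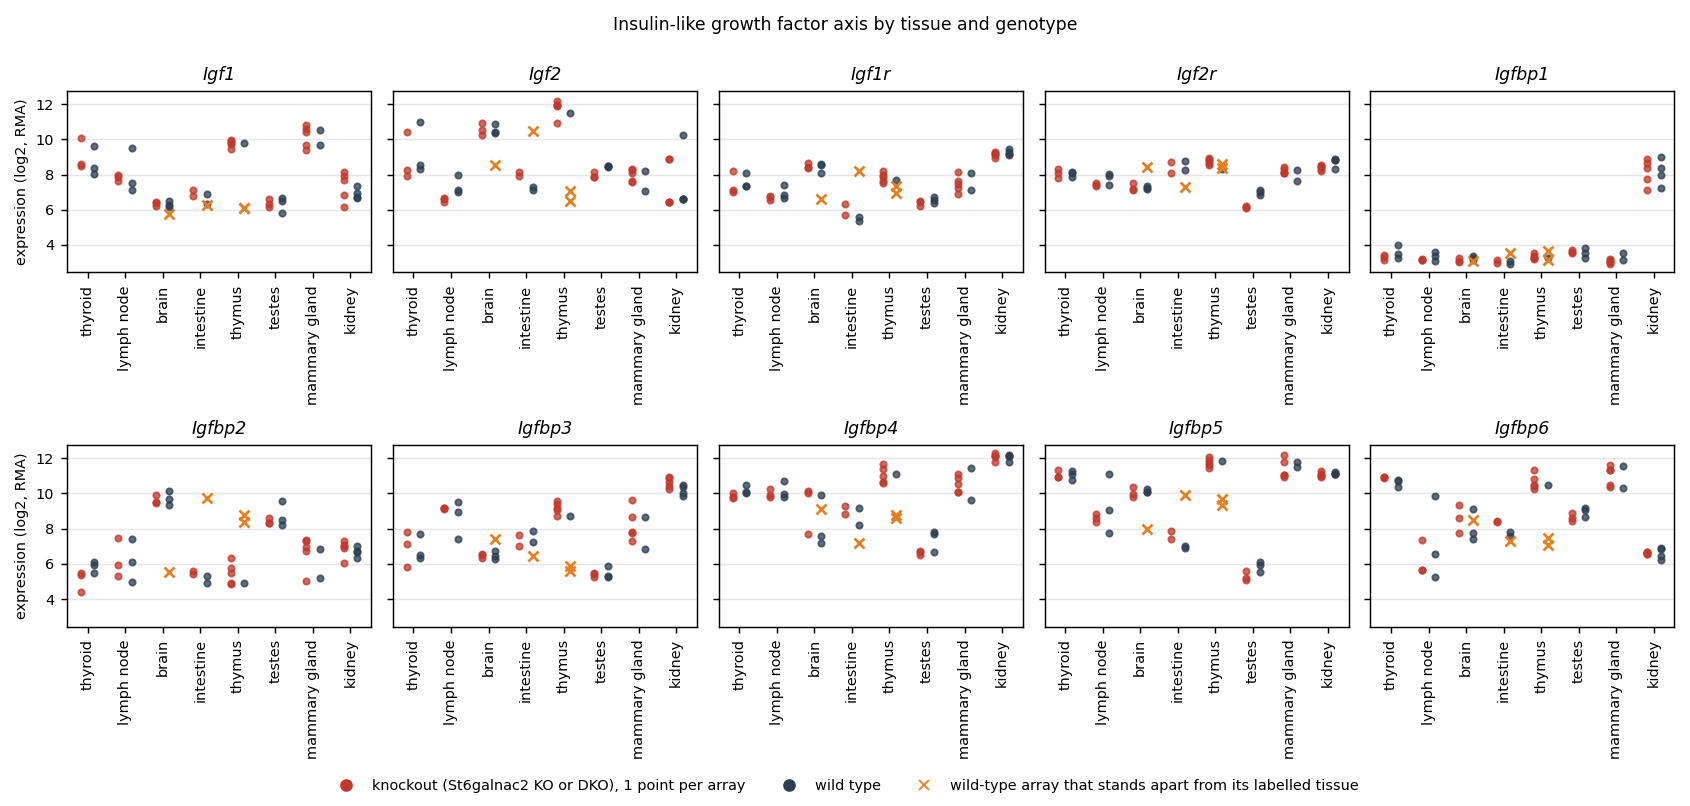
Level of each member (log2, vertical axis) in 8 tissues, 1 point per array, with knockout arrays left of wild-type arrays and crosses for the 4 wild-type arrays that stand apart. Igfbp1 is above 7 in kidney alone (7.13 to 9.01), Igfbp5 falls to 5.10 to 6.11 in testes, and the thymus crosses lie far below the other thymus points in Igf2 (6.5 and 7.09 against at least 10.94) and Igf1 (6.08 and 6.11 against at least 9.45).

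The genes whose tissue means followed each member most closely were named as the 2 with the highest correlation over 8 tissues. They were Thbd (0.978) and Adgre1 (0.962) for Igf1, Slc35e1 (0.939) and Fgf12 (0.923) for Igf2, Pdgfb (0.962) and Fzd1 (0.932) for Igf1r, and Ssr3 (0.928) and Il15 (0.925) for Igf2r. For the binding proteins they were Sult1c2 (0.991) and Umod (0.986) for Igfbp1, Rnf220 (0.968) and Chpf (0.945) for Igfbp2, Angpt2 (0.954) and Igfbp4 (0.921) for Igfbp3, and Emcn (0.930) and Igfbp3 (0.921) for Igfbp4. They were Il11ra2 (0.947) and Vegfa (0.932) for Igfbp5 and Tgfb3 (0.912) and Polr2f (0.903) for Igfbp6. Umod is the kidney gene of uromodulin, Adgre1 encodes a macrophage surface receptor, and Emcn encodes endomucin of vessel walls.

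Each WT tissue was tested with limma against the average of the 3 remaining tissues from its line, and a probe set was called at a Benjamini-Hochberg adjusted p under 0.05, over 963 named probe sets, together with a difference of at least 1. Testes had the most calls, 8 of 10 members against 28% of all probe sets (and 8 against 30.1% without the arrays that stand apart). Igfbp5 was lower by 5.16 ± 0.42 (SE, adjusted p = 2.98e-06), with 5.86 in WT testes against 10.97 over the other tissues. Igfbp4 (-3.30), Igfbp3 (-2.74), Igf1 (-1.80), Igf1r (-1.53), Igfbp1 (-1.41) and Igf2r (-1.38) were lower too, and Igfbp2 (2.08, adjusted p = 0.0313) was higher. Without N3738, 5 members were called. Without the arrays that stand apart Igfbp5 differed by -5.68, Igf1 by -2.61 and Igfbp2 by 2.89. For Igfbp1 the average of the remaining tissues holds kidney (8.14 in WT mice), and its readings in WT testes, mammary gland and thymus were all under 4.21, so its lower calls in these tissues restate the kidney level. The same contrast in DKO mice, none of whose arrays stood apart, gave -6.10 for Igfbp5 and 2.07 for Igfbp2.

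In WT kidney 6 of 10 members were called, against 20.6% of all probe sets (7 against 22.4% without the arrays that stand apart). Igfbp1 was higher by 4.73 ± 0.28 (adjusted p = 3.58e-07), Igfbp3 by 3.51, Igfbp4 by 2.92, Igf1r by 2.09 ± 0.19 and Igfbp5 by 1.86, and Igfbp6 was lower (-2.82 ± 0.55, adjusted p = 0.00184). Igf1 was the seventh without those arrays (-1.81, adjusted p = 0.00016). In WT mammary gland 4 of 10 were called, against 17.8% (4 against 17.7% without the arrays that stand apart): Igf1 (3.25), Igfbp6 (2.95) and Igfbp5 (2.57) were higher and Igfbp1 (-1.67) was lower. WT mammary gland rests on 2 mice and lost all 4 calls without N3738. Without the arrays that stand apart Igf1 differed there by 2.43, Igfbp6 by 2.24 and Igfbp5 by 2.05. In WT kidney Igfbp3 then differed by 2.84 and Igfbp6 by -3.54. The lacrimal and salivary gland gene Prol1 read 9.74 to 12.47 on 4 of the 7 mammary arrays, both WT arrays among them, and 2.52 to 2.61 on the others, and its part in these results was not tested.

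In WT thymus 1 of 10 members was called (Igfbp1, -1.65), against 10.9% of all probe sets. Without the arrays of N3740 and N3738 1 WT thymus is left, which the fit assumes to vary like the other tissues. There 6 were called against 15.8%: Igf2 (3.61, adjusted p = 0.0434), Igfbp5 (2.30), Igf1 (1.99) and Igfbp6 (1.66) were higher and Igfbp2 (-2.22) and Igfbp1 (-1.76) were lower. In DKO thymus, with 5 arrays, the same differences were 4.0, 2.49, 1.82, 1.88, -1.84 and -1.62. With mouse N3738 left out no member was called in WT thymus, and with N9700 left out, where the 2 arrays that stand apart are the WT thymus, 6 were. Those ran the other way for Igf1 (-1.80), Igfbp6 (-1.62) and Igfbp2 (1.53). The tissue contrasts of the St6galnac2 line depended on mouse 9099 in the same way. WT brain had 0 of 10 members called against 10.1% (3 with an unadjusted p under 0.05), and 6 against 34.5% without the arrays that stand apart: Igfbp2 (4.02, adjusted p = 5.27e-05), Igf2 (2.59) and Igf1r (1.73) were higher and Igf1 (-1.47), Igfbp4 (-1.46) and Igfbp3 (-1.20) were lower. In KO brain Igfbp2 differed by 4.0, Igf2 by 2.75, Igf1r by 1.76, Igf1 by -1.61 and Igfbp3 by -1.33, whereas Igfbp4 differed by -0.34 and did not pass (adjusted p = 0.51).

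WT intestine had 0 of 10 called against 4.98% (3 with an unadjusted p under 0.05), and without the arrays that stand apart 4 against 28.6%, all lower: Igfbp5 (-3.20), Igf1r (-2.17), Igfbp2 (-2.14) and Igf2 (-1.86). In KO intestine the same differences were -2.28, -1.53, -1.47 and -0.64, the last of which did not pass (adjusted p = 0.29). In WT thyroid 2 of 10 were called against 8.62%, Igfbp6 (2.92, adjusted p = 0.0313) and Igf1 (1.76), and Igfbp5 (2.24) joined them without the arrays that stand apart (3 against 17%). Leaving out mouse 9362 left 0 members called there, and leaving out 9099 left 1. In WT lymph node Igfbp3 (1.72, adjusted p = 0.0298) was the 1 member called against 14.7%, and Igf2 (-1.64) joined it without those arrays (2 against 22%). No member was called there without 9099 or without 9362. The WT lymph node of mouse 9094 carried 9.53 for Igf1, 11.12 for Igfbp5 and 9.86 for Igfbp6, against 7.12 to 7.98, 7.76 to 9.07 and 5.24 to 7.36 in the other 5 lymph nodes. In it the B cell markers averaged 7.39, against at least 9.50 in the others, the T cell markers 4.94, against 7.21 to 7.66, and the connective tissue markers 8.08, against 7.01 to 7.61, and their part in the result was not tested. Prol1 read 2.61, 5.12 and 11.08 in WT lymph nodes and 2.41 to 2.78 in KO lymph nodes, and its part was not tested either.

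Brain samples also differed among themselves in Igfbp4 and Igfbp6. Igfbp4 read 7.68, 10.03 and 10.16 in KO brains, 7.18 (second array of 9099), 7.57 and 9.89 in WT brains, and 8.63, 10.05 and 10.31 in C57 brains. The 3 lowest samples, from KO mouse 9100 and WT mice 9099 and 9362, were also the 3 lowest for Igfbp6 (7.77, 7.39 and 7.74, against 8.57 to 9.37 in the other 6). The 3 probe sets of Igfbp4 moved together over all 60 arrays (r = 0.93 to 0.988), and the one reported carries a suffix for probes shared with other transcripts. Brain markers averaged 9.05 to 9.13 in the 3 low samples and 9.32 to 9.55 in the others, and their part in the difference was not tested.

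Whether loss of the glycosyltransferases changed the IGF axis was asked in each tissue with limma, adjusting for sex outside testes, and with calls at an adjusted p under 0.05. Igf2r in testes was the single member called in any of the 8 comparisons. It read 6.10, 6.18 and 6.22 in DKO testes, against 6.83, 7.02 and 7.12 in WT testes. All 3 DKO values lay below all 3 WT values. Igf2r fell by 0.83 ± 0.12 (SE, 1.77-fold, adjusted p = 0.0264), the 1 called of 10 members in a comparison that called 0.312% of all probe sets (3 of 963) and whose median over all genes was -0.11. With a second quantile normalization the difference was -0.65 (adjusted p = 0.0424). The difference lay between -0.91 and -0.76 when any 1 mouse was left out, but the call was lost without N3738, N3740, N5893, N5894 or N5895 (adjusted p = 0.093 to 0.199).

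Other members in testes moved less. Igf2 read 7.85, 7.89 and 8.14 in DKO testes, against 8.41, 8.47 and 8.49 in WT testes, so the groups did not overlap either (-0.50 ± 0.12, adjusted p = 0.248). Groups were free of overlap for 2 of 10 members and for 13.4% of all genes. Igfbp5 (-0.56) and Igfbp4 (-0.78) had unadjusted p-values of 0.0121 and 0.0139 and did not pass, and the 2 other probe sets of Igfbp4 gave -0.27 and -0.42. The germ cell gene Galntl5 read 11.72, 11.76 and 12.14 in DKO testes and 11.39, 11.45 and 11.75 in WT testes. Markers of myeloid cells (5 of 8 listed genes measured) averaged 5.24, 5.30 and 5.35 in DKO testes and 5.38, 5.57 and 5.65 in WT testes, without overlap. This was not particular to them. Markers of intestinal epithelium (7 of 11 measured) averaged 5.56, 5.59 and 5.66 in DKO testes and 5.68, 5.74 and 5.74 in WT testes, also without overlap. The part of any of these in the differences was not tested.

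The DKO effect on Igf2r was not the same in the 4 tissues. Igf2r read 8.55, 8.67, 8.80, 8.85 and 8.93 in DKO thymus, against 8.30, 8.38 and 8.63 in WT thymus, where the last 2 values came from the arrays that stand apart. It read 8.10, 8.11, 8.14, 8.31 and 8.43 in DKO mammary gland, against 7.65 and 8.26 in WT mammary gland, and these groups overlapped. In kidney it read 8.21, 8.29, 8.43, 8.47 and 8.51 in DKO mice, against 8.29, 8.81, 8.84 and 8.91 in WT mice, with the female WT kidney at 8.29 and the males all above every DKO value. The differences were 0.28 ± 0.16 in thymus, 0.29 ± 0.18 in mammary gland and -0.28 ± 0.08 in kidney, none of which passed (adjusted p = 0.298, 0.647 and 0.25). The moderated F test of the difference between tissues passed for Igf2r (adjusted p = 0.0028) and for Igf2 (0.0451), 2 of 10 members against 3.43% of all probe sets. Without the arrays that stand apart Igf2r passed alone (adjusted p = 0.00876, against 0.503 for Igf2), 1 of 10 against 0.623%. The Igf2r result lost its call without N3738 (adjusted p = 0.205) and kept it in the 8 fits that left out another mouse (adjusted p = 0.000239 to 0.0306). The Igf2 result kept its call without N9700 and lost it without any other mouse.

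**Figure D2:**
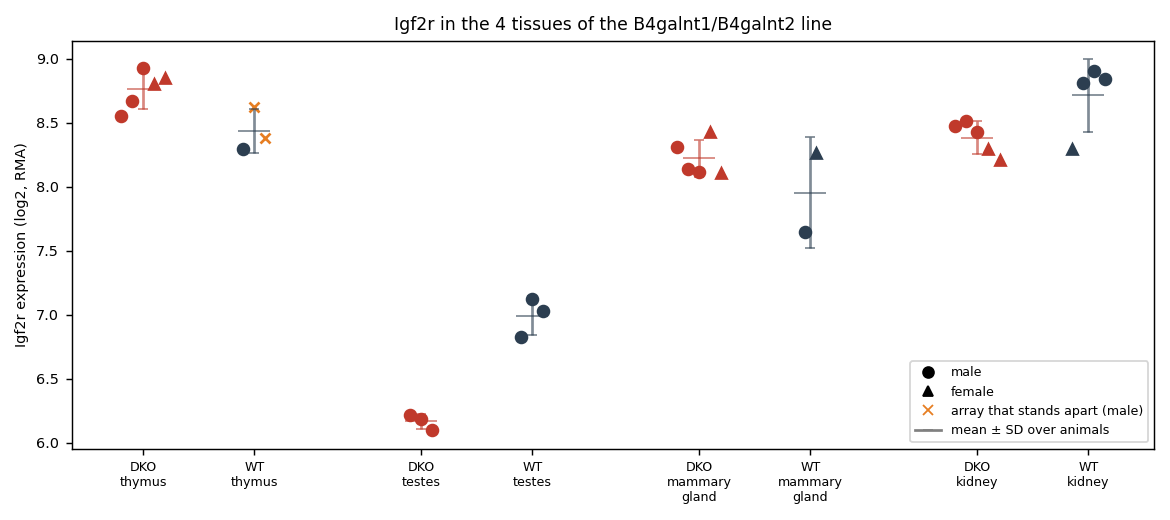
Igf2r level (log2, vertical axis) in DKO and WT mice of 4 tissues, with circles for males, triangles for females, crosses for the 2 thymus arrays that stand apart, and bars for the mean ± SD over animals. DKO testes lie at 6.10 to 6.22, below WT testes at 6.83 to 7.12, whereas DKO thymus lies at 8.55 to 8.93 and WT thymus at 8.30 to 8.63.

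In kidney, 0.104% of probe sets and 0 of 10 members were called between DKO and WT. Igfbp3 (0.39 ± 0.12), Igf2r and Igf2 (-0.53 ± 0.18) had unadjusted p-values of 0.00681, 0.00573 and 0.0129 and an adjusted p of 0.25, 0.25 and 0.289. The Igf2 difference was -0.16 without N9686, the 1 female WT kidney, and -0.10 with no sex term. In mammary gland 0% of probe sets and 0 members were called, and no member had an unadjusted p under 0.05. In thymus 0% and 0 members were called, with unadjusted p-values under 0.05 for Igf2 (3.57), Igf1 (2.56), Igfbp3 (2.53), Igfbp6 (2.21) and Igfbp5 (1.46). These differences came to 0.44, 0.11, 0.53, 0.07 and -0.11 without the arrays of N3740 and N3738, which leaves 1 WT thymus. Prol1 read 2.50 to 2.61 in DKO thymus, against 2.50 in WT mouse N9700 and 13.41 and 13.51 on the 2 WT arrays that stand apart, and its part in these differences was not tested. For Igf2 the DKO thymuses read 10.94, 11.89, 11.93, 11.95 and 12.19, against 11.48 on the WT array of N9700 and 6.5 and 7.09 on the 2 that stand apart. Averaged over the 4 tissues, 0.831% of probe sets were called for the DKO effect (0.519% without the arrays that stand apart) and 0 members in either fit, and Igfbp3 (0.84, adjusted p = 0.109) and Igf1 (0.73, adjusted p = 0.172) had an unadjusted p under 0.05 with all arrays. Without N9700, which leaves the WT thymus to the 2 arrays that stand apart, 5 members were called for that mean.

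In the St6galnac2 line 0% of probe sets and 0 of 10 members were called in thyroid, lymph node, brain and intestine, in the mean over the tissues and in the test of a difference between tissues, with or without the arrays that stand apart. Between KO and WT, 1 member each in thyroid, lymph node and intestine had an unadjusted p under 0.05 and none in brain, and with all arrays no adjusted p of a member was under 0.283. In the mean over the tissues Igfbp1 had an unadjusted p of 0.042 (-0.17 ± 0.08, adjusted p = 0.976), and in the test of a difference between tissues 0 members had one under 0.05. Igfbp2 in thyroid read 4.41, 5.37 and 5.5 in KO mice, against 5.46, 5.95 and 6.13 in WT mice, with overlap (-0.75 ± 0.17, adjusted p = 0.283). Igf2 in lymph node read 6.44, 6.64 and 6.65 in KO mice, against 7.04, 7.11 and 7.96 in WT mice, without overlap (-0.79 ± 0.22, adjusted p = 0.801). Igfbp6 in intestine read 8.35 and 8.41 in KO mice, against 7.28 (the array that stands apart), 7.59 and 7.82 in WT mice, without overlap (0.82 ± 0.26, adjusted p = 0.991, and 0.67, adjusted p = 0.436, without that array). Without that array Igf2 in intestine differed by 0.83 (adjusted p = 0.268), against -0.07 with it. Igfbp6 in thyroid read 10.86, 10.94 and 10.96 in KO mice and 10.35, 10.73 and 10.74 in WT mice, also without overlap (0.32 ± 0.17, adjusted p = 0.989). Chga read 5.77, 7.79 and 12.83 in KO thyroids and 12.73, 13.02 and 13.06 in WT thyroids, and its part in the thyroid differences was not tested. Groups were free of overlap for 1 of 10 members in thyroid (6.8% of all genes), lymph node (10.7%) and intestine (15.5%), and for 0 in brain (4.5%).

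**Figure D3:**
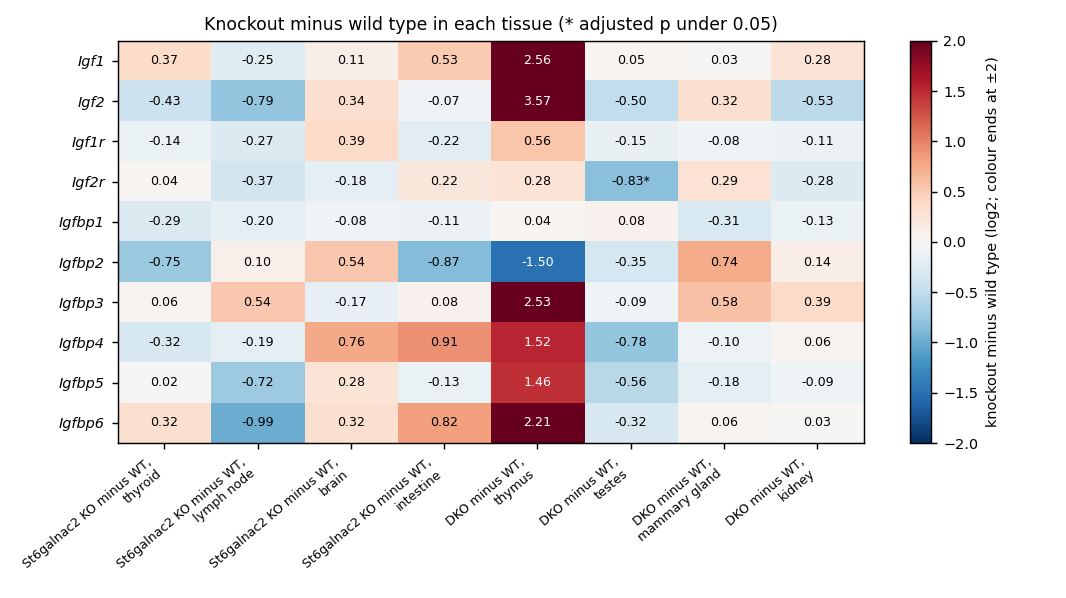
Knockout minus wild type (log2, colour and number) for the 10 members in rows and the 8 comparisons in columns, with a star at an adjusted p under 0.05. The star stands at Igf2r in testes (-0.83), and the large values in the thymus column (up to 3.57) rest on the 2 WT arrays that stand apart.

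In kidney 3 of 10 members were called between males and females, with genotype as a covariate, against 9.03% of all probe sets. Igf2 read 6.42, 6.46 and 6.46 in DKO males and 6.60, 6.60 and 6.63 in WT males, against 8.87 and 8.90 in DKO females and 10.24 in the WT female. Every male lay more than 2 units below every female, and the difference was -2.90 ± 0.19 (7.46-fold, adjusted p = 5.55e-06). It stayed called in all 9 fits that left out 1 mouse (-3.05 to -2.44). Without the WT female it was -2.44, between DKO and WT males and the 2 DKO females.

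Igfbp1 read 7.13, 7.21, 7.77, 7.97, 8.39 and 8.4 in male kidneys, against 8.66, 8.90 and 9.01 in female kidneys, without overlap (-1.07 ± 0.28, adjusted p = 0.0379). Igf2r went the other way, with 8.43, 8.47, 8.51, 8.81, 8.84 and 8.91 in males and 8.21, 8.29 and 8.29 in females (0.35 ± 0.09, adjusted p = 0.0253). The share of all genes whose groups did not overlap was not taken between the sexes, in kidney or in mammary gland. Igf1 (6.84 ± 0.50, SD, n = 6 males, and 7.79 ± 0.39, n = 3 females, difference -0.90 ± 0.26) and Igfbp3 (10.26 ± 0.29 and 10.75 ± 0.24, difference -0.43 ± 0.12) did not pass (adjusted p = 0.0568 and 0.0533). The calls of Igfbp1 and Igf2r depended on single mice: without N9686 or N5891 Igf2 was the 1 member called. The connective tissue markers averaged 7.05 to 7.39 in male kidneys and 7.56 to 7.84 in female kidneys, and their part in these differences was not tested. The kidney marker Umod read 12.09 to 12.28 in males and 12.23 to 12.49 in females.

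**Figure D4:**
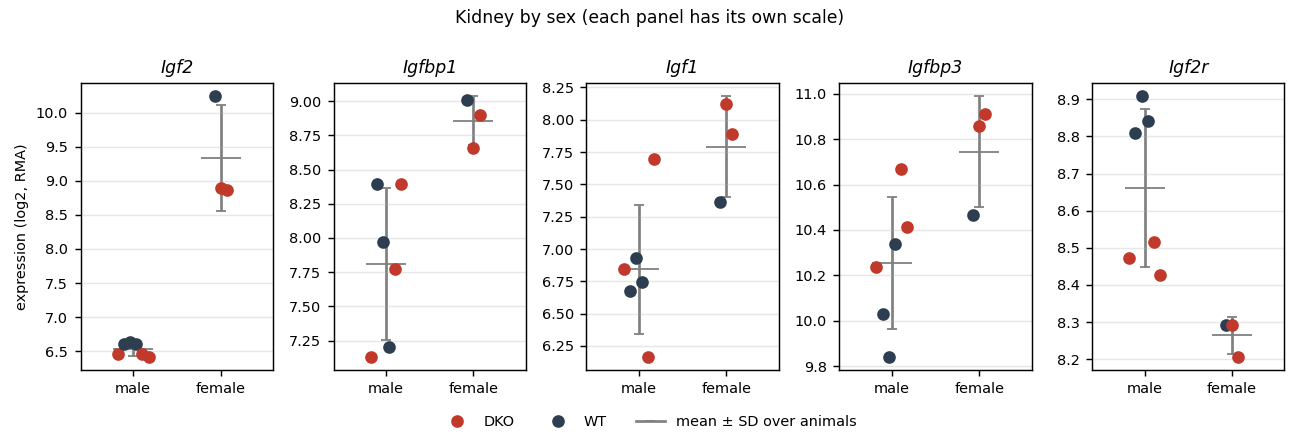
Kidney levels (log2, vertical axes with a scale per gene) of 5 members in 6 males and 3 females, DKO in red and WT in dark blue, with bars for the mean ± SD over animals. Igf2 lies at 6.42 to 6.63 in males and at 8.87 to 10.24 in females, whereas Igf2r is higher in males (8.43 to 8.91) than in females (8.21 to 8.29).

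In mammary gland 0.312% of probe sets and 0 of 10 members were called between the sexes. Igfbp5 read 10.96, 11.02, 11.07 and 11.52 in males, against 11.79, 11.81 and 12.19 in females, without overlap, and did not pass (-0.77 ± 0.18, adjusted p = 0.21). Igf1r (-0.68 ± 0.25, adjusted p = 0.383) had an unadjusted p of 0.033. Muc1, the 1 measured epithelial marker, read 5.14 to 5.64 in males and 6.45 to 7.02 in females, and its part in these differences was not tested.

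WT mice of the St6galnac2 line were also set against C57 mice, and 0% of probe sets and 0 of 10 members were called in brain and in intestine. In intestine Igfbp3 read 6.46 (the array that stands apart), 7.24 and 7.89 in the St6galnac2 line, against 8.39, 8.69 and 9.58 in C57 mice, without overlap (-1.69 ± 0.49, adjusted p = 0.349, and -1.33, adjusted p = 0.171, without that array). Igfbp4 read 7.19 (the same array), 8.22 and 9.16, against 9.09, 9.81 and 10.22 in C57 mice, with overlap (-1.51 ± 0.58, adjusted p = 0.412, and -1.01, adjusted p = 0.256, without that array). Without that array Igfbp5 differed by -1.48 (adjusted p = 0.132, against -0.50 with it) and Igf2 by -1.0 (adjusted p = 0.159, against 0.09 with it). The labels call the tissue Intestine in one line and Small Intestine in C57 mice, so line and section of gut cannot be told apart. In brain no member had an unadjusted p under 0.05, and Igf1 was lower without overlap, at 6.01 to 6.47 over the 3 WT mice of the line and 6.55 to 6.61 in C57 mice (-0.35 ± 0.14, adjusted p = 0.419). Without the brain array that stands apart the line's mice read 6.18 to 6.47 (-0.26, adjusted p = 0.171). The share of all genes whose groups did not overlap was not taken for the comparisons with C57 mice.

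Other genes of the IGF system were few on the array. Of 23 listed, 6 were measured (Igfals, Igfbp7, Igfbpl1, Igf2bp1, Igf2bp2 and Igf2bp3), and 0 were called in any knockout comparison. In kidney 3 of the 6 were called between the sexes, against 9.03% of all probe sets. Igfals, the gene of the acid-labile subunit that joins IGFBP3 in the circulating complex, averaged 7.24 in males and 7.95 in females (-0.73 ± 0.13, adjusted p = 0.0055). Igfbp7 was lower in males as well (-0.30 ± 0.07), and Igf2bp1, which encodes an RNA-binding protein, was higher (0.72 ± 0.19). Igf2bp3, another gene of that family, was higher in WT testes by 5.26 ± 0.16, with 8.89 against 3.63 over the other tissues (adjusted p = 1.09e-09).

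Of 32 listed lysosomal enzymes that carry the mannose 6-phosphate tag, the cargo of the Igf2r product, 22 were measured, whereas 0 of 6 genes of the tagging enzymes and the other carriers were. None of the 22 was called in a knockout comparison. In DKO testes their median difference was -0.25, beside -0.11 over all genes, with the smallest p for Asah1, the acid ceramidase gene (8.09 in DKO and 8.74 in WT testes, -0.65 ± 0.13, adjusted p = 0.114). In WT testes, where Igf2r was low, 3 of the 22 were higher and 7 lower than over the other tissues, against 28% of all probe sets called. Arsa, the gene of arylsulfatase A, was higher by 3.35 ± 0.16 and Hexa, a hexosaminidase gene, by 1.08 ± 0.17, whereas Lipa, the lysosomal lipase gene, and Neu1, a sialidase gene, were each lower (-2.46). In WT kidney 8 were higher and 1 was lower, against 20.6% of all probe sets called, with Neu1 at 3.97 ± 0.25 and Arsa at -1.54 ± 0.14. Between the sexes in kidney 2 of the 22 were called, a share near the 9.03% over all probe sets, and both were higher in males: Galns (higher by 1.69 ± 0.13, adjusted p = 2.64e-05) and Glb1 (0.55 ± 0.13, adjusted p = 0.0235). Their median there was -0.04, beside 0.02 over all genes.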

How the data were processed

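Total RNA of mouse tissues was hybridised to a custom Affymetrix array. The authors deposited log2 intensities summarised by RMA, per the submitters' processing notes; the version, and whether all arrays were normalized together, are not given in the sources used here. They were used as deposited (2.11 to 14.07, array medians 5.30 to 5.76). The 963 probe sets named through RefSeq identifiers entered the tests, and 283 without a symbol did not. Where probe sets shared a gene, the one of highest mean stood for it. The animal was the replicate, and the 2 brain arrays of mouse 9099 were averaged.

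Comparisons were fitted over the 963 probe sets with limma 3.58.1 in R 4.3.3 (2-sided, Benjamini-Hochberg), on all groups of a comparison. Fits of the knockout effect across tissues took sex within each tissue and a random block for the animal (correlation -0.118 for St6galnac2 mice, 0.0734 for B4galnt1/B4galnt2 mice). The contrasts of each WT tissue with the remaining tissues of its line took neither, and the block entered them as an alternative. Animals gave several tissues, which is the source of the pairing. The knockout fit within a tissue was run on simulated data with independent normal noise, and the other fits were not. P-values measure the spread between animals, and the number of arrays limits the precision. In the contrasts of WT tissues this spread treats the tissues of a mouse as independent. In the reported fits it also holds the arrays that stand apart. An array stood apart at a correlation under 0.3 with the mean of its labelled tissue. Members were described per animal where called, where the unadjusted p was under 0.05 or where groups did not overlap. The members, lists, alternatives and this rule were chosen with earlier results of these data known. Errors beside differences are standard errors. Alternatives were other normalizations and filters, all probe sets, fits over all groups of a line, the block in or out, fits without the arrays that stand apart, knockout animals in place of wild type, and each animal left out in turn.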

Additional observations from a re-analysis of the deposited data

Results flagged for a closer look

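In kidney of WT mice, N9686, the only female of the 4, stood far from the 3 males for Igf2 (10.24 against 6.60 to 6.63) and for Igf2r (8.29 against 8.81 to 8.91). In DKO thymus the female N5891 was low for Igf2, at 10.94 against 11.89 to 12.19 in the other 4 mice. In DKO mammary gland the male N5894 was low for Igfbp2, at 5.05 against 6.71 to 7.38 in the other 4. A sample far from the others was looked for, per member, in DKO thymus, mammary gland and kidney and in WT kidney. Of these 40 checks, which share mice, chance would mark about 1 in 20. The DKO effect differed between tissues by the moderated F test for Igf2r (adjusted p = 0.0028) and for Igf2 (adjusted p = 0.0451).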

How the results depend on the processing

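Counts of called members moved as follows. The share of all probe sets called was taken only for the reported fits and for those without the arrays that stand apart. Counts under other settings, here and above, have no such share beside them and show only how the count depends on the setting. With all groups of the line in 1 fit, 6 were called in DKO thymus, with the WT thymus arrays that stand apart included. For the difference of the DKO effect between tissues, 1 was called with no replicate block, without the arrays that stand apart, or with arrays centred on their medians. With the animal as a replicate block, 0 were called in WT thyroid. With the block, no other tissue count moved by more than 1.5 times. Without the arrays that stand apart, 2 were called in WT lymph node, 6 in brain, 4 in intestine and 6 in thymus. With knockout animals in place of wild type, 4 were called in thyroid, 3 in lymph node, 5 in brain, 3 in intestine and 9 in thymus. Centring gave 0 in WT lymph node, and no minimum difference gave 2 in WT thymus. Leaving out 1 animal gave 0 to 8 in DKO thymus (8 without N9700, where the arrays that stand apart are the WT thymus), 0 to 4 in DKO testes, 0 to 5 in the mean DKO effect, 0 to 8 in its difference between tissues, 0 to 2 in WT thyroid and lymph node, 0 to 3 in brain, 0 to 4 in intestine, 0 to 6 in thymus, 5 to 8 in testes, 0 to 5 in mammary gland, and 1 to 4 between the sexes in kidney.

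Differences turned round in WT thymus without the arrays that stand apart for Igfbp2 (-2.22), Igfbp6 (1.66) and Igf1 (1.99), and with knockout animals for Igfbp2 (-1.84), Igfbp3 (1.09), Igfbp6 (1.88), Igf1 (1.82) and Igfbp4 (1.31). Igf2 in testes became -1.10 with knockout animals. The cause was not tested. Of 2353 values of single members under an alternative, 2192 kept their side of the threshold and called values their direction, 35 lost and 77 gained a call, 9 turned round and 40 moved by more than the spread. Counting uncalled values too, 210 of the 2353 changed sign, 187 of them among the 2192 and 14 among the 40. Low readings such as those of Igfbp1 outside kidney limit what a fall could show.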
